A study of Mus musculus with 30 samples.

Results

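Described here are 10 genes: the transcriptional regulators Myb, Sox4, Erg, Lef1 and Lmo2, the growth factor and cytokine receptors Kit, Flt3 and Il7r, and the surface molecules Cd93 and Cd24a. They were picked by symbol, as genes active in blood progenitors and lymphocyte precursors, out of 19938 genes measured. Earlier results of these data were known at that point, so counts among the 10 are descriptions. Each of the 10 had 1 probe set carrying its symbol alone, and each was measured on all 30 arrays. No filter on low values was applied, so all 10 were tested.

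The study compared Tg26 mice that had developed B lymphoid tumours with tumour-free mice of the same line and with the parent strain. Total RNA of spleen and of lymph node was hybridized to Affymetrix Mouse Gene 1.0 ST arrays, with 1 array for each tissue of 15 mice. The mice were 3 FVB/N controls, 6 asymptomatic Tg26 mice (labelled NoTumor) and 6 Tg26 mice with lymphoma. Tg26 animals were heterozygous, on the FVB/N background, and carry a pNL4-3 HIV-1 provirus without a part of gag-pol, which cannot infect. All mice were killed between 5 and 12 months of age, and no age or sex per mouse was used. The line with lymphoma came, per the labels, from crosses of heterozygotes that had skin lesions. The labels name 2 batches. Mice 1 to 3 of every state were in A, whereas B had mice 4 to 6 of both Tg26 states and no FVB/N mouse. The spleen array of lymphoma mouse 4 carries a disease status code used elsewhere for controls, but its title and description say lymphoma, and it was kept there.

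Blood cells arise from progenitors that carry the receptors KIT and FLT3, and lymphoid precursors then come to depend on the interleukin 7 receptor. MYB and SOX4 are needed in early B cell development, ERG and LMO2 keep stem and progenitor programmes active, and LEF1 carries Wnt signals in precursor lymphocytes and T cells. CD93 and CD24 mark immature B cells in bone marrow and spleen, and most of these genes are turned down as lymphocytes mature.

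Levels are the deposited log2 values, on which 1 unit is a doubling, and they are compared within a gene only. The signal of a probe over its background was not assessed, so a low level may include background. Array medians ran from 6.67 to 6.89. Several arrays held RNA of neighbouring tissue. For a salivary gland list, nodes from FVB/N mice 2 and 3 averaged 10.92 and 9.26. Nodes from asymptomatic mice 2 and 3 were at 8.27 and 9.21, and that of lymphoma mouse 5 was at 7.0. For an exocrine pancreas list, nodes from asymptomatic mice 5 and 6 averaged 12.00 and 13.31, and spleens from asymptomatic mice 4 and 5 averaged 7.40 and 8.49. For adipose and muscle genes, asymptomatic nodes 2 to 5 averaged between 8.69 and 10.55, and the node of FVB/N mouse 2 averaged 8.95. The node array of asymptomatic mouse 6 also had the highest spleen marker average of all arrays, 9.55, with erythroid genes at 9.45. A list of 8 lymph node markers averaged 5.89 to 6.81 in the lymphoma nodes, which overlapped the 6.04 to 6.49 of the lymphoma spleens, against 6.76 to 8.12 in the asymptomatic nodes.

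The upstream sequences of Myb, Sox4 and Flt3 are shown because these genes changed in the same direction in both tissues and have 1 listed start each. They are the 250 bases before the start, read 5′ to 3′ on the strand of the gene, from RefSeq (GRCm38.p6). The Myb stretch is chr10:21160985-21161234, that of Sox4 is chr13:28953700-28953949 and that of Flt3 is chr5:147400490-147400739, all on the minus strand. Capitals mark matches to 6 short motifs that were chosen after the sequences had been seen.
Myb: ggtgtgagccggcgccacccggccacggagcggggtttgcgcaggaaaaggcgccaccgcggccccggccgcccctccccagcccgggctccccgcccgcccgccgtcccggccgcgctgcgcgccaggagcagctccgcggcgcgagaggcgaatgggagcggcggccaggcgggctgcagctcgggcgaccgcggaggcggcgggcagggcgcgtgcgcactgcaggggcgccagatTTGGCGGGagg
Sox4: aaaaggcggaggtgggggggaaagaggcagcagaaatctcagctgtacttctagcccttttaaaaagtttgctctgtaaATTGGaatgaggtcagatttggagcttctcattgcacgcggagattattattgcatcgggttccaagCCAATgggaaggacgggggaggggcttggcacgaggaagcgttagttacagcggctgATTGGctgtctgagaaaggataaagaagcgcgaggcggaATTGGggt
Flt3: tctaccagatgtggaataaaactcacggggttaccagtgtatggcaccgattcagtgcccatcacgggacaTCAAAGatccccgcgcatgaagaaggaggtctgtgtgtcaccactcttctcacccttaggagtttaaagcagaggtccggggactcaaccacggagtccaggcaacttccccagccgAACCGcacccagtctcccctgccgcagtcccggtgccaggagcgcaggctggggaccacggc
The 81.2% of G and C in the Myb stretch compares with 50.8% for Sox4 and 59.2% for Flt3. The motifs were searched on both strands: AACNG (MYB), AACAAT (SOX), CTTTGA (LEF and TCF factors), CGGAAG (ETS factors), CCAAT (the CCAAT box) and TTGGCGGG (E2F). Myb holds 1 match, to the E2F letters, 11 to 4 bases before its start. Such a match lies in 0.807% of all 32851 listed stretches of this length. Sox4 holds 4 matches to the CCAAT box, which 33.8% of all stretches hold at least once. Flt3 holds 1 match to the LEF and TCF letters, 179 to 174 bases before its start, and 1 to the MYB letters, where the shares over all stretches are 13.8% and 74.2%. None of the 3 holds the SOX letters (9.42% of stretches) or the ETS letters (13.6%). A match is a description of letters, not a binding site, and Erg and Lef1, with 3 and 4 listed starts, are not printed. Cd93 and Cd24a were also called in the same direction in both tissues, but no upstream sequence was available for them.

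With lymphoma, Myb, Sox4, Erg and Cd93 rose and Flt3 fell in both tissues. In these 5 genes no lymphoma array overlapped an asymptomatic one, in spleen or in lymph node. Il7r rose in spleen, Cd24a in both tissues and Lef1 was called lower in both, while Lmo2 and Kit were called in neither. The fit includes surrogate variables, which are estimated from all genes and stand for spread that the groups do not account for. Its p-values measure the spread between arrays that is left once these variables are taken out. Spleen and node of a mouse enter it as separate arrays, without a mouse block. At an adjusted p under 0.05 over all 19938 genes (limma), 6 of the 10 genes were higher and 2 lower in spleen, where 8.58% of all genes were higher and 7.25% lower. In lymph node 5 were higher and 2 lower, where 11.6% of all genes were higher and 12.5% lower. Groups that did not overlap were found for 5 of the 10 genes in each tissue, against 9.54% of all genes in spleen and 10.8% in lymph node. The spleen count was 5 within batch A, within batch B, and with neither batch nor surrogate variables in the fit. In these settings 2769, 1678 and 3148 of all 19938 genes were called in spleen, against 3156 in the main fit.

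**Figure D1:**
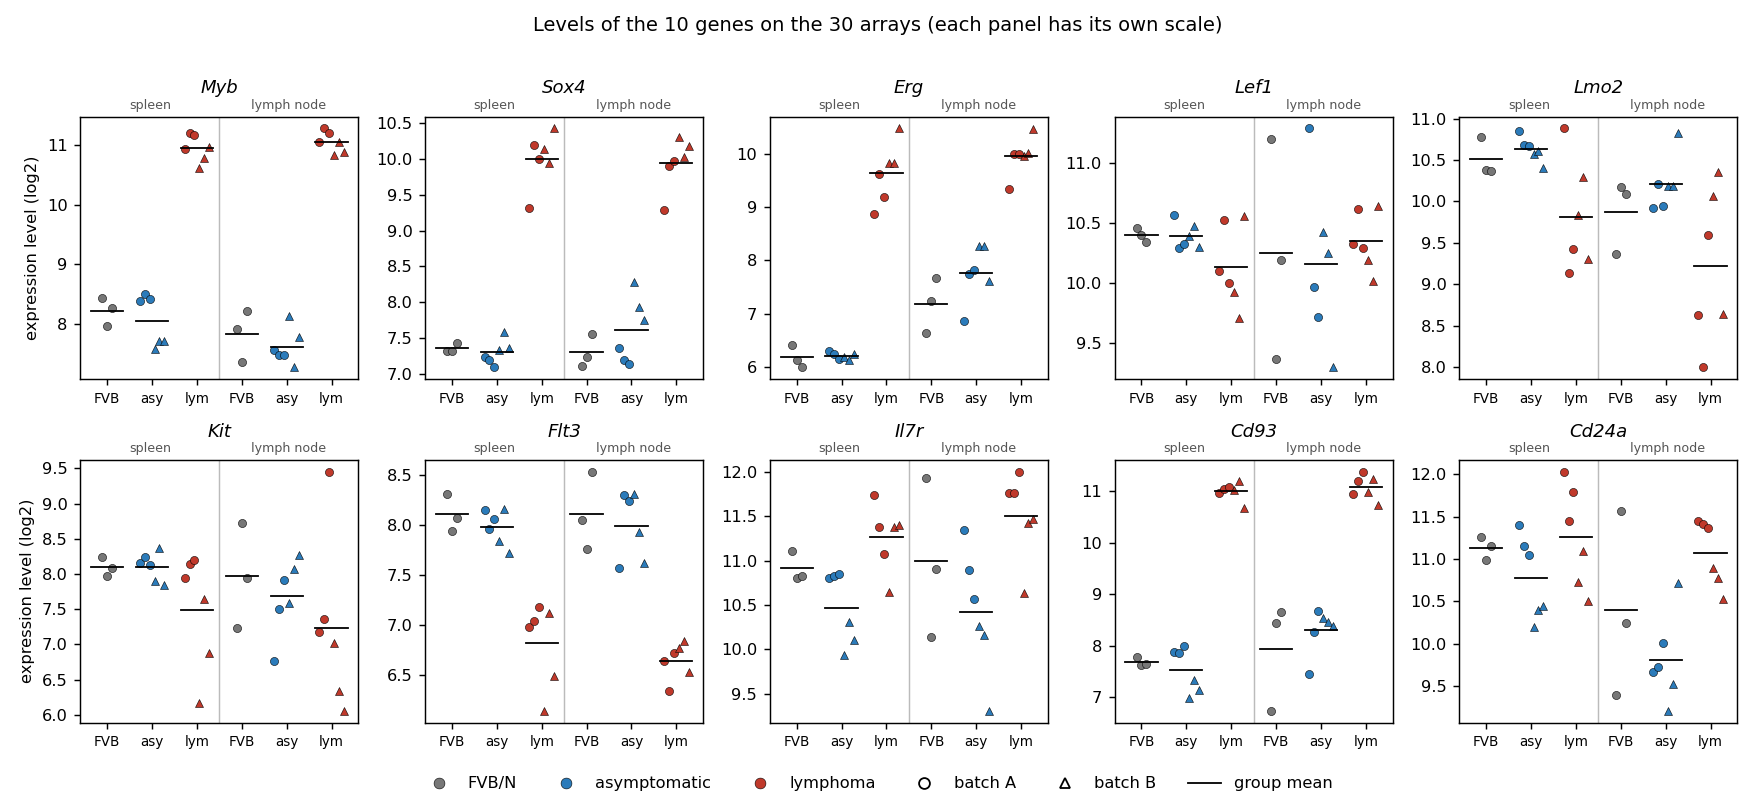
Level (log2) of each of the 10 genes on the 30 arrays, by tissue and state, with a point for each array (circles batch A, triangles batch B) and a line at the group mean; asy is asymptomatic and lym is lymphoma. Myb, Sox4, Erg and Cd93 sit higher and Flt3 lower on all 12 lymphoma arrays than on the asymptomatic arrays of the same tissue.

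Among the regulators, Myb (probe set 10368199) showed 2 bands of level with nothing between them. This transcription factor sustains progenitor growth. Its levels in spleen were 8.43, 7.96 and 8.27 in FVB/N mice, 7.57 to 8.50 (median 8.04) in asymptomatic mice and 10.62 to 11.20 (median 10.96) in lymphoma mice. In lymph node they were 7.91, 7.36 and 8.22, then 7.27 to 8.13 (median 7.52), then 10.84 to 11.28 (median 11.05). All 12 lymphoma arrays lay above all 18 others. The fitted rise over asymptomatic mice was 3.02 in spleen (8.09-fold, SE 0.20, adjusted p = 7.33e-10) and 3.42 in lymph node (10.7-fold, SE 0.22, adjusted p = 3.87e-10). Over 28 other settings of the fit it ran from 2.67 to 3.13 in spleen and from 3.20 to 3.81 in lymph node, and all passed. By group mean the order was lymphoma node (11.05 ± 0.17) and lymphoma spleen (10.95 ± 0.22), which differ by less than their SD, then FVB/N spleen (8.22 ± 0.24), asymptomatic spleen (8.05 ± 0.43), FVB/N node (7.83 ± 0.43) and asymptomatic node (7.61 ± 0.30), where neighbours again differ by less than their SD (n = 3 or 6).

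Sox4 (probe set 10408450), a factor needed for the survival of B cell precursors, rose in both tissues. The spleens read 7.33, 7.33 and 7.44 in FVB/N mice, 7.10 to 7.59 (median 7.29) in asymptomatic mice and 9.31 to 10.42 (median 10.06) in lymphoma mice. The nodes read 7.12, 7.24 and 7.56, then 7.15 to 8.29 (median 7.55), then 9.29 to 10.30 (median 10). The lymphoma groups stood clear of all others, with lymphoma mouse 1 lowest among them in both tissues, at 9.31 and 9.29. The fitted rise was 2.55 in spleen (5.84-fold, SE 0.18, adjusted p = 1.23e-09) and 2.14 in lymph node (4.40-fold, SE 0.20, adjusted p = 3.28e-08). By mean, lymphoma spleen (10 ± 0.38) and lymphoma node (9.94 ± 0.35) led, and the other 4 groups lay between 7.31 ± 0.17 and 7.61 ± 0.45, each within the larger SD of the next (n = 3 or 6).

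Erg (probe set 10441093), an ETS factor of stem cells, progenitors and endothelium, was lowest in the spleens without lymphoma. Its spleen levels were 6.41, 6.14 and 6.00 in FVB/N mice, 6.13 to 6.31 (median 6.21) in asymptomatic mice and 8.87 to 10.47 (median 9.72) with lymphoma. In lymph node the FVB/N mice read 6.63, 7.23 and 7.67, the asymptomatic mice 6.86 to 8.27 (median 7.77) and the lymphoma mice 9.34 to 10.46 (median 9.99). Lymphoma arrays were above all others in each tissue, and the nodes without lymphoma were above the spleens without it in all 9 mice. The rise was 3.12 in spleen (8.71-fold, SE 0.24, adjusted p = 6.30e-09) and 2.22 in lymph node (4.65-fold, SE 0.27, adjusted p = 1.64e-06). The endothelium list ran from 7.30 to 8.54 in the asymptomatic nodes, from 6.68 to 7.03 in the lymphoma nodes and from 6.42 to 6.58 in the asymptomatic spleens. Of its 16 genes, 12 fell and 1 rose in lymph node (median -0.87, with a median of -0.02 over all genes). In spleen 1 fell and 2 rose (median -0.28, with -0.03 over all genes). Among them the endothelial receptor genes Tek and Tie1 and the junction gene Cdh5 differed by -1.42, -1.23 and -1.88 in lymph node (adjusted p up to 6.29e-05), while Erg rose there. The part of endothelial RNA in the node levels of Erg was not tested. Means ran from lymphoma node (9.96 ± 0.36) and lymphoma spleen (9.63 ± 0.56) to asymptomatic node (7.76 ± 0.52), FVB/N node (7.18 ± 0.53), asymptomatic spleen (6.21 ± 0.07) and FVB/N spleen (6.18 ± 0.21), and the lymphoma pair and the spleen pair each differ by less than their SD (n = 3 or 6).

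Lef1 (probe set 10496091), the Wnt effector that T cells also express, had overlapping groups and a call that changed with the fit. Spleen levels were 10.46, 10.40 and 10.34 in FVB/N mice, 10.29 to 10.57 (median 10.36) in asymptomatic mice and 9.71 to 10.56 (median 10.05) with lymphoma. Node levels were 11.20, 9.37 and 10.19, then 9.30 to 11.29 (median 10.11), then 10.02 to 10.64 (median 10.31). The groups overlapped in both tissues, and the measured means differed by -0.25 in spleen and 0.19 in lymph node. With 6 surrogate variables in the fit, the difference was -0.47 in spleen (SE 0.13, adjusted p = 0.0127) and -0.91 in lymph node (SE 0.14, adjusted p = 3.59e-05). With batch in their place it was -0.25 (adjusted p = 0.588) and 0.19 (adjusted p = 0.597), so it was called in neither tissue. With mouse number as a block within the tissue the values were the same, with adjusted p = 0.289 and 0.651. Without lymphoma mouse 5 the spleen value was 0.14 (adjusted p = 0.514), without lymphoma mouse 3 it was -0.13 (adjusted p = 0.549), and without asymptomatic mouse 6 it was -0.19 (adjusted p = 0.246). It also did not pass without FVB/N mouse 1 (adjusted p = 0.172) or lymphoma mouse 2 (adjusted p = 0.0937), while the node value passed without each of the 15 mice in turn. By mean, FVB/N spleen (10.40 ± 0.06), asymptomatic spleen (10.39 ± 0.11), lymphoma node (10.35 ± 0.24), FVB/N node (10.25 ± 0.92), asymptomatic node (10.16 ± 0.68) and lymphoma spleen (10.14 ± 0.34) each lay within the larger SD of the next.

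Beside Lef1, the T cell list moved far more. It averaged 9.39 to 9.74 in asymptomatic spleens and 6.31 to 7.52 in lymphoma spleens, and 8.60 to 10.44 against 6.45 to 7.84 in lymph node. Of its 18 genes 17 fell in each tissue, with medians of -2.32 in spleen and -2.95 in lymph node. Within the asymptomatic nodes, mouse 1 had both the highest Lef1 level (11.29) and the highest T cell average (10.44), and mouse 6 had the lowest of both (9.30 and 8.60). In the FVB/N nodes mouse 1 was again highest in both (11.20 and 10.69) and mouse 2 lowest in both (9.37 and 9.02). How much of the Lef1 level came from T cells was not tested. Among 11 measured cofactors and Wnt targets, only Axin2, a feedback inhibitor of the Wnt pathway, fell in spleen (by 1.32, SE 0.11, adjusted p = 2.43e-08). In lymph node Axin2 fell by 1.34, Bcl9l by 0.61 and Apcdd1 by 0.46 (adjusted p up to 0.046). Medians were -0.16 and -0.12.

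Lmo2 (probe set 10474201), a bridging protein of progenitor transcription complexes, spread widely among the lymphoma mice. It read 10.78, 10.38 and 10.37 in FVB/N spleens, 10.40 to 10.85 (median 10.64) in asymptomatic spleens and 9.14 to 10.88 (median 9.64) in lymphoma spleens. The nodes read 9.36, 10.17 and 10.09, then 9.92 to 10.82 (median 10.18), then 8.0 to 10.35 (median 9.12). Groups overlapped in both tissues, although 5 of 6 lymphoma spleens lay below the lowest asymptomatic one. The measured means differed by -0.82 and -1.0, but the fitted differences were -0.10 (95% interval -0.62 to 0.42, adjusted p = 0.852) and 0.01 (-0.56 to 0.59, adjusted p = 0.98). Where a batch term replaced the surrogate variables, the node difference was -1.0 (adjusted p = 0.0122) and the spleen difference -0.82 (adjusted p = 0.0591). Single mice decided the fitted value: without lymphoma mouse 3 it was -0.80 in spleen (adjusted p = 0.0147) and -0.89 in lymph node (adjusted p = 0.0126), and without lymphoma mouse 5 it was -1.22 in spleen (adjusted p = 0.00377). With mouse number as a block the spleen difference was -0.82 (adjusted p = 0.0154). The order of means was asymptomatic spleen (10.63 ± 0.15), FVB/N spleen (10.51 ± 0.24), asymptomatic node (10.21 ± 0.33), FVB/N node (9.87 ± 0.45), lymphoma spleen (9.81 ± 0.67) and lymphoma node (9.21 ± 0.93), each within the larger SD of the next. The highest lymphoma spleen, that of mouse 1 at 10.88, also had the highest erythroid average among the lymphoma spleens, 10.13 in a range from 6.65, and the part of erythroid cells in it was not tested.

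Partners of LMO2 and ERG were called in 1 direction. Of 12 measured, 5 rose in spleen and the same 5 in lymph node, with a median of 0.44 in each tissue. They were Lyl1, a partner of LMO2 (0.65 and 1.65), the E proteins Tcf3 (0.53 and 0.99) and Tcf12 (0.68 and 0.66), the core binding factor Runx1 (0.98 and 0.93) and Ssbp2 (1.39 and 0.74), and the largest SE and adjusted p among them were 0.20 and 0.00304. The classic partners Tal1 and Gata2 differed by 0.26 and -0.38 in spleen and by 0.43 and -0.13 in lymph node and were not called. Among 16 further stem and progenitor genes, 1 rose (Gfi1b, 1.79) and 1 fell (Slamf1, -1.27) in spleen, while 5 rose and 4 fell in lymph node (medians -0.01 and 0.26). The lymph node calls included Gfi1b (2.17) and Spi1 (1.10), factors of blood lineage choice, as higher and Procr (-1.24) and Slamf1 (-1.11), which mark stem cells, as lower (adjusted p up to 0.000246). The stem cell gene Hoxa9 (0.05 and -0.41) and the marker Cd34 (-0.16 in spleen) were not called, and Cd34 fell in lymph node by 1.02 (adjusted p = 0.0355).

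Close relatives of the 10 genes gave calls in both directions. Of 16 measured, 4 rose and 1 fell in spleen, and 3 rose and 3 fell in lymph node (medians 0.15 and 0.10). Mybl2, the MYB relative of dividing cells, rose by 1.24 and 2.02, and Tcf7l2, a LEF1 relative, by 1.26 and 1.48 (adjusted p up to 0.000127). Ets1, the ETS factor of mature lymphocytes, fell by 0.99 and 1.46 (adjusted p up to 0.000286). Thbd, which shares its domain plan with CD93, rose by 1.75 and 0.86 (adjusted p up to 0.0112). Mybl1 differed by 0.41 and 0.33, Sox11 by 0.31 and 0.13, Pdgfrb by 0.09 and -0.39 and Csf1r by -0.23 and -0.45, none of them called.

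Of the 3 receptors, Flt3 fell, Il7r was higher and Kit split the lymphoma mice. Flt3 (probe set 10535780), the receptor of multipotent progenitors and of dendritic cell precursors, read 8.31, 7.94 and 8.07 in FVB/N spleens, 7.72 to 8.16 (median 8.01) in asymptomatic spleens and 6.15 to 7.18 (median 7.01) with lymphoma. In lymph node it read 8.05, 7.76 and 8.53, then 7.57 to 8.31 (median 8.09), then 6.35 to 6.84 (median 6.68). All lymphoma arrays were below all others of their tissue. The fitted difference was -0.95 in spleen (SE 0.17, adjusted p = 0.000272) and -1.16 in lymph node (SE 0.19, adjusted p = 5.52e-05), or 1.93-fold and 2.24-fold lower. Within batches the measured means differed by -0.99 and -1.32 in spleen and by -1.47 and -1.24 in lymph node. With the arrays holding neighbouring tissue left out, which leaves 1 asymptomatic node, the node value was -0.87 (adjusted p = 0.0558), in an alternative added after the data were seen. The FVB/N and asymptomatic means, from 7.98 ± 0.18 to 8.11 ± 0.39, differ by less than their SD, and lymphoma spleen (6.83 ± 0.41) and lymphoma node (6.64 ± 0.18) differ by less than the larger of theirs.

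A dendritic cell list moved with Flt3. It averaged 7.44 to 7.74 in asymptomatic and 6.12 to 6.81 in lymphoma spleens, and 7.36 to 8.35 against 6.25 to 7.15 in lymph node. Of 12 genes, 6 fell in spleen and 7 in lymph node and none rose (medians -0.90 and -0.84). Clec9a, carried by the dendritic cells that cross-present antigen, differed by -1.61 and -1.54, and Fscn1, of mature dendritic cells, by -1.70 and -3.43 (all 4 lower, adjusted p up to 0.000404). In bulk tissue, fewer cells of a type and less RNA per cell cannot be told apart. Flt3l, the ligand of FLT3, fell as well, by 0.84 in spleen (SE 0.16, adjusted p = 0.000492) and by 1.59 in lymph node (SE 0.17, adjusted p = 3.57e-07).

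Il7r (probe set 10427628), which early B precursors and most T cells carry, was called in spleen only, although the difference between the tissues, -0.54, was not called (adjusted p = 0.513). Its spleen levels were 11.11, 10.80 and 10.83 in FVB/N mice, 9.94 to 10.85 (median 10.56) in asymptomatic mice and 10.65 to 11.74 (median 11.38) in lymphoma mice. Node levels were 11.93, 10.14 and 10.91, then 9.31 to 11.34 (median 10.41), then 10.63 to 12.00 (median 11.61). Groups overlapped over all mice, but within batch A and within batch B every lymphoma array lay above every asymptomatic array, in both tissues. The fitted rise in spleen was 1.01 (2.02-fold, SE 0.22, adjusted p = 0.00211). In lymph node the fit gave 0.47 (95% interval -0.04 to 0.97, adjusted p = 0.186), against a measured mean difference of 1.09, which passed with batch as a term (adjusted p = 0.000563) and with mouse (adjusted p = 0.000498) or mouse number (adjusted p = 0.0108) as a block. The node value also passed without lymphoma mouse 4 (0.56, adjusted p = 0.0195) or mouse 6 (0.59, adjusted p = 0.0394). By mean the order was lymphoma node (11.51 ± 0.48), lymphoma spleen (11.27 ± 0.37), FVB/N node (10.99 ± 0.90), FVB/N spleen (10.91 ± 0.17), asymptomatic spleen (10.47 ± 0.41) and asymptomatic node (10.42 ± 0.69), with neighbours that differ by less than the larger of their SDs, except FVB/N and asymptomatic spleen. Asymptomatic minus FVB/N spleen was -0.44 in these means, but -0.09 within batch A, which holds all FVB/N mice, and -0.08 in the fit.

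Kit (probe set 10522530), the stem cell factor receptor of progenitors and mast cells, had no call in the fit. Spleens read 8.24, 7.97 and 8.08 in FVB/N mice, 7.84 to 8.37 (median 8.14) in asymptomatic mice and 6.17 to 8.20 (median 7.79) with lymphoma. Nodes read 7.24, 8.73 and 7.94, then 6.76 to 8.27 (median 7.75), then 6.06 to 9.45 (median 7.09). The lymphoma arrays fell apart by batch: in spleen 7.94, 8.14 and 8.20 in batch A against 6.17, 7.64 and 6.88 in batch B, and in lymph node 7.17, 7.36 and 9.45 against 7.02, 6.34 and 6.06. The node of lymphoma mouse 3, at 9.45, was the highest of all 30 arrays, and the mast cell and basophil list averaged 5.56 there, within the 5.50 to 5.89 of the lymphoma nodes. The fitted difference was -0.25 in spleen (95% interval -1.10 to 0.61, adjusted p = 0.764) and 0.78 in lymph node (-0.17 to 1.72, adjusted p = 0.252). Within batch B alone the node difference was -1.50 (adjusted p = 0.0109), and within batch A it was 0.60 (adjusted p = 0.462). The measured means over all mice differed by -0.61 in spleen and -0.45 in lymph node, the latter opposite in sign to the fit, and neither passed when a batch term replaced the surrogate variables (adjusted p = 0.38 in lymph node). Means lay between 7.23 ± 1.19 in lymphoma node and 8.10 ± 0.20 in asymptomatic spleen, and each group lay within the larger SD of the next.

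Kitl and Flt3l fell in both tissues and Il7 in lymph node, and genes of receptor signalling gave calls in both directions. Of 8 measured ligands and partners, 1 rose and 2 fell in spleen, and 2 rose and 4 fell in lymph node (medians -0.13 and -0.58). Kitl, the ligand of KIT, fell by 0.68 (adjusted p = 0.0272) and 1.39 (adjusted p = 8.48e-05), Il7 fell in lymph node by 0.91 (adjusted p = 0.0157) and differed by -0.27 in spleen (adjusted p = 0.526), and Cxcl12, a niche chemokine, fell in lymph node by 1.14 (adjusted p = 0.00579). Cxcr4, its receptor, rose by 0.80 and 0.70 (adjusted p up to 0.0101), and Siglecg, a receptor for CD24, rose in lymph node by 1.00 (adjusted p = 0.00256). Of 14 genes of IL-7 and KIT signalling, 1 rose and 2 fell in spleen and 1 rose and 6 fell in lymph node (medians -0.21 and -0.33). Bcl2, the survival gene, fell by 1.05 and 1.65 (adjusted p up to 2.38e-05) and Stat5b, which carries the IL-7 signal, by 0.27 and 0.42 (adjusted p up to 0.0312). Socs2, a feedback inhibitor, rose in spleen by 0.84 (adjusted p = 0.026), and Sh2b3, another inhibitor, rose in lymph node by 0.62 (adjusted p = 0.000725).

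The surface marker Cd93 (probe set 10488382), a receptor of immature B cells that endothelium and myeloid cells also carry, rose in both tissues. It read 7.77, 7.62 and 7.65 in FVB/N spleens, 6.98 to 8.0 (median 7.60) in asymptomatic spleens and 10.67 to 11.20 (median 11.03) with lymphoma. Node levels were 6.74, 8.43 and 8.66, then 7.45 to 8.68 (median 8.42), then 10.72 to 11.37 (median 11.09). The lowest lymphoma array, at 10.67, was above the highest other array, at 8.68. The fitted rise was 3.51 in spleen (11.4-fold, SE 0.21, adjusted p = 3.24e-10) and 3.64 in lymph node (12.5-fold, SE 0.24, adjusted p = 2.89e-10), and over 28 other settings it ran from 3.10 to 3.81 and from 2.52 to 4.03. The measured means differed by 3.46 and 2.78. The nodes of FVB/N mouse 1 and asymptomatic mouse 1, lowest for Cd93 at 6.74 and 7.45, were also lowest for the endothelium list, at 6.80 and 7.30. By mean, lymphoma node (11.07 ± 0.23) and lymphoma spleen (10.99 ± 0.18) differ by less than their SD, and asymptomatic node (8.29 ± 0.44), FVB/N node (7.94 ± 1.05), FVB/N spleen (7.68 ± 0.08) and asymptomatic spleen (7.53 ± 0.43) each lay within the larger SD of the next (n = 3 or 6).

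Cd24a (probe set 10362896), the heat stable antigen of immature lymphocytes, was called higher in both tissues. The gap between the 2 rises depended on the fit. In spleen it read 11.26, 10.99 and 11.15 in FVB/N mice, 10.20 to 11.40 (median 10.74) in asymptomatic mice and 10.50 to 12.03 (median 11.27) in lymphoma mice. In lymph node it read 9.39, 11.57 and 10.25, then 9.21 to 10.72 (median 9.69), then 10.53 to 11.45 (median 11.13). Over all mice the groups overlapped in both tissues, in lymph node through asymptomatic mouse 6 (10.72) and lymphoma mouse 6 (10.53). The fitted rise was 0.69 in spleen (1.61-fold, SE 0.19, adjusted p = 0.0144) and 2.45 in lymph node (5.45-fold, SE 0.21, adjusted p = 1.28e-08). Over 26 other settings the rise in lymph node minus that in spleen ran from 0.49 to 2.08, and 19 of them called it. Between measured means the gaps were 0.49 and 1.26, and with batch as a term these gave adjusted p = 0.214 and 0.000381. The spleen call was also lost without lymphoma mouse 5 (0.31, adjusted p = 0.314) or mouse 2 (0.67, adjusted p = 0.0836). The 2 highest nodes without lymphoma were those of FVB/N mouse 2 (11.57), with the salivary gland list at 10.92, and asymptomatic mouse 6 (10.72), with the pancreas list at 13.31. The part of those tissues in the Cd24a level was not tested. Means ran from lymphoma spleen (11.26 ± 0.60), FVB/N spleen (11.13 ± 0.13), lymphoma node (11.07 ± 0.39), asymptomatic spleen (10.77 ± 0.49) and FVB/N node (10.40 ± 1.10) to asymptomatic node (9.81 ± 0.52), each within the larger SD of the next (n = 3 or 6).

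**Figure D2:**
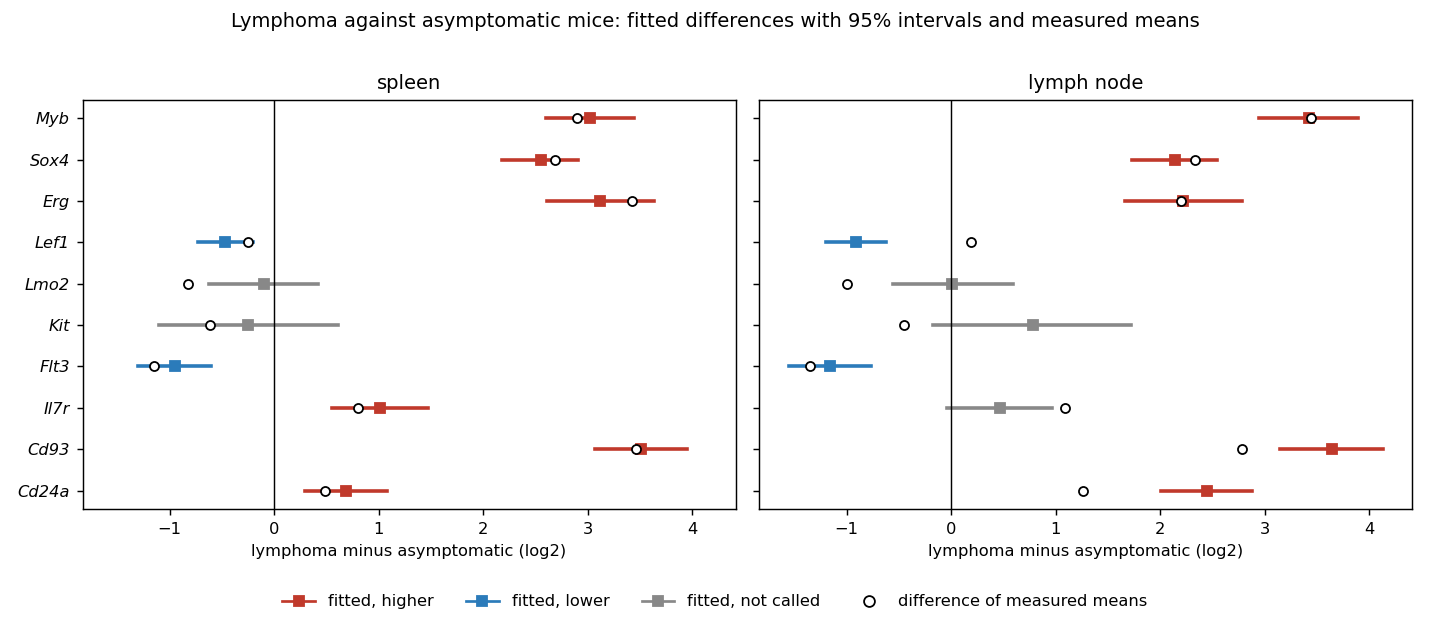
Lymphoma minus asymptomatic (log2) for each gene in spleen and lymph node. Squares with bars are the fitted difference and its 95% interval, and open circles are the difference of the measured means. For Myb, Sox4, Erg and Flt3 the open circle lies within the bar in both tissues, whereas it lies outside for Lmo2 in spleen and for Lef1, Lmo2, Kit, Il7r, Cd93 and Cd24a in lymph node.

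Around these 10 genes, B precursor and cell division genes rose and mature lymphocyte genes fell. Of 21 B precursor genes, a list that holds Sox4, 12 rose and none fell in spleen, and 17 rose and 1 (Spn) fell in lymph node (medians 1.27 and 1.62). Rag1, the recombinase gene, rose by 4.83 and 4.44, Igll1, part of the surrogate light chain, by 4.76 and 5.24, and Vpreb3 by 2.74 and 3.86 (largest adjusted p 4.53e-08). The proliferation list holds 17 genes, of which 16 were higher in spleen and 17 in lymph node (medians 1.91 and 2.49). Of 11 mature B cell genes, 9 fell in spleen and 8 in lymph node (medians -1.38 and -1.31). Of 9 early T precursor genes, 2 rose and 1 fell in spleen, and 3 rose and 3 fell in lymph node (medians 0.03 and -0.2). Those that rose included Rag1 and Rag2, which B precursors use too. Dtx1, a NOTCH target, fell by 1.69 and 1.78 (adjusted p up to 5.69e-06). The mast cell and basophil list, beside Kit, had 0 of 11 calls in spleen by limma and 3 falls in lymph node, Mcpt4, Mrgprb1 and Cpa3 (medians -0.18 and -0.28).

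**Figure D3:**
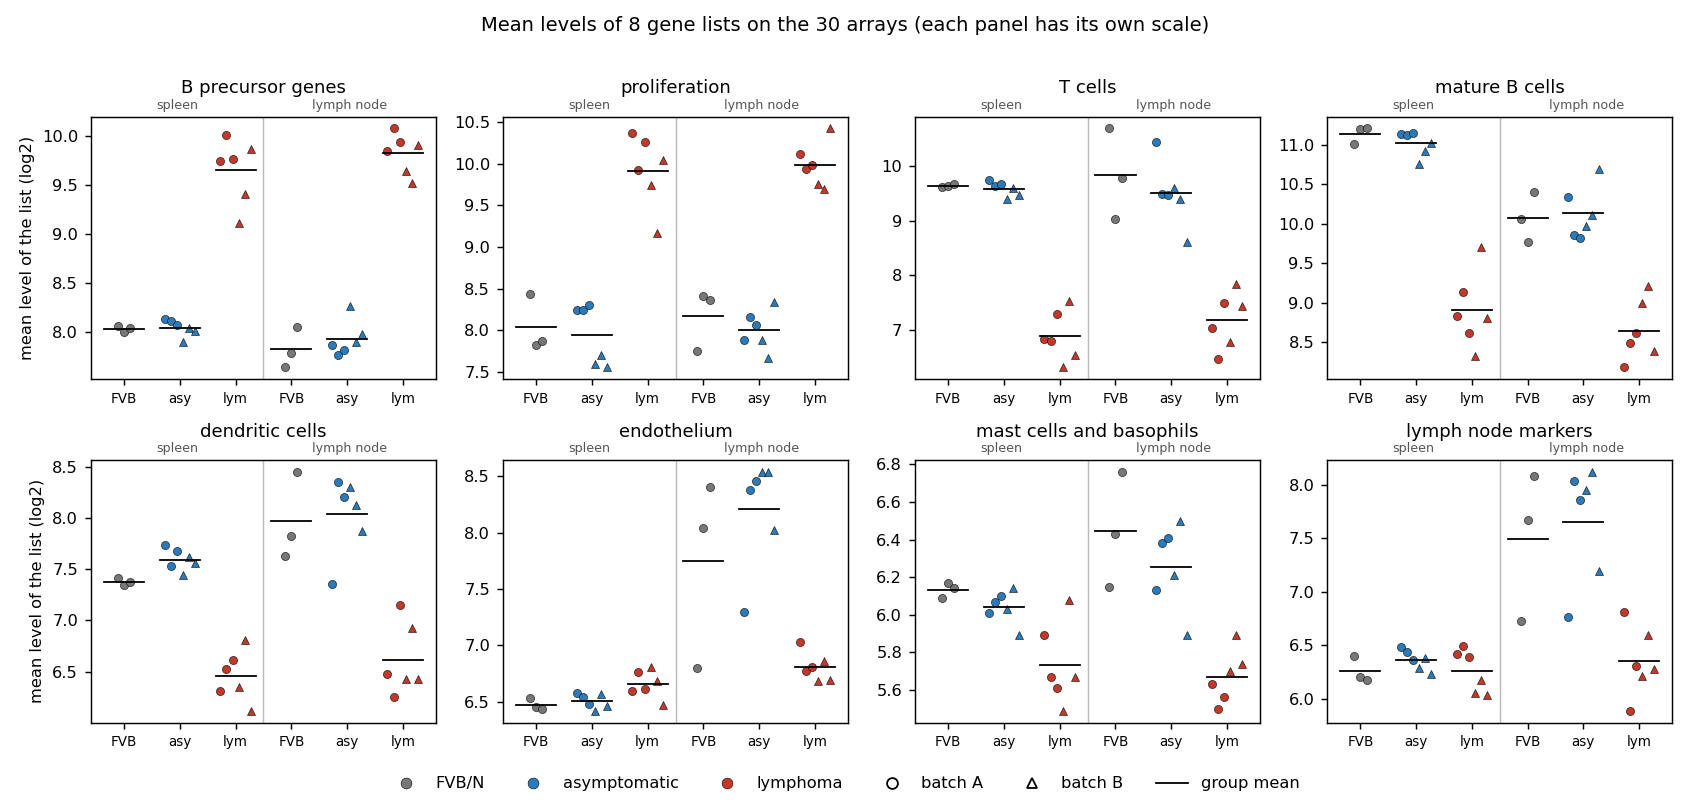
Mean level (log2) of the genes of 8 lists on each of the 30 arrays, by tissue and state, with circles for batch A, triangles for batch B and a line at the group mean. Lymphoma arrays are higher for B precursor and proliferation genes and lower for T cell and mature B cell genes, and the endothelium list is at 7.30 to 8.54 in asymptomatic nodes and 6.68 to 7.03 in lymphoma nodes.

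Asymptomatic and FVB/N mice differed in few of all genes, and none of the 10 was called. Between these states 0 of 10 passed in spleen and 0 of 10 in lymph node (limma), where 0.617% and 1.94% of all genes did. With shares this small, 0 of 10 is not read as a result about these genes. The 3 FVB/N mice were all in batch A. At an unadjusted p under 0.05 there was 1 gene in each tissue, Sox4 in spleen (-0.37, 95% interval -0.73 to -0.01) and Cd93 in lymph node (0.54, 0.07 to 1.00). With batch as a term there was none in either tissue. The widest intervals were those of Kit, from -0.62 to 1.07 in spleen and from -0.97 to 0.83 in lymph node, and those of Myb were -0.44 to 0.39 and -0.51 to 0.38.

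Against FVB/N mice, which share the lymphoma arrays with the comparison above, lymphoma gave a similar set of calls. In spleen 6 genes were higher (7.1% of all genes) and 1 lower (5.25%), and in lymph node 5 were higher (8.59%) and 2 lower (7.98%). Myb rose by 2.99 and 3.35, Sox4 by 2.17 and 2.15, Erg by 2.84 and 2.56 and Cd93 by 3.46 and 4.18, where no SE exceeded 0.32 and no adjusted p 4.99e-06. Flt3 fell by 1.05 and 0.99 (adjusted p = 0.00108 and 0.00292). Il7r (0.93) and Cd24a (0.76) passed in spleen with adjusted p = 0.0231 and 0.0326, and in lymph node Cd24a rose by 2.06 (adjusted p = 3.39e-06). Their measured means were closer: 0.36 for Il7r and 0.13 for Cd24a in spleen, and 0.67 for Cd24a in lymph node, where that of Cd93 was 3.13. These means set FVB/N mice of batch A alone against lymphoma mice of both batches. Within batch A the spleen gaps were 0.48 for Il7r (groups overlapping) and 0.62 for Cd24a (groups apart). The node gaps in batch A were 1.01 for Cd24a (overlapping) and 3.22 for Cd93 (apart). With mouse as a block and batch as a term, both spleen calls were lost, at 0.69 for Il7r (adjusted p = 0.128) and 0.44 for Cd24a (adjusted p = 0.503), the node value of Cd24a was 0.98 (adjusted p = 0.0375) and Il7r passed in lymph node at 0.84 (adjusted p = 0.0391). The spleen call of Il7r was lost without FVB/N mouse 2 (0.82), FVB/N mouse 3 (0.87) or lymphoma mouse 1 (0.85). That of Cd24a was lost without FVB/N mouse 1 (0.81) or 3 (0.87), asymptomatic mouse 1 (0.54), 5 (0.69) or 6 (0.51), or lymphoma mouse 1 (0.79), 2 (0.69), 3 (0.54) or 5 (0.35). Il7r was at 0.42 in lymph node and Lef1 at -0.46 in spleen, neither called (adjusted p = 0.392 and 0.0562), and Lef1 was called in lymph node at -1.0, where its measured means differed by 0.10, where mouse as a block gave 0.17 (adjusted p = 0.723) and where the call was lost without lymphoma mouse 5 (-0.40, adjusted p = 0.15). Lmo2 was at 0.10 in spleen, not called, and at -1.08 without lymphoma mouse 5 (adjusted p = 0.0261).

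In the fit with surrogate variables, the size of the lymphoma change was called different between the tissues for 1 gene. For Cd24a the rise in lymph node exceeded that in spleen by 1.76 (SE 0.26, 95% interval 1.21 to 2.30, adjusted p = 0.00246), and 0.572% of all genes passed this test. With batch as a term the excess was 0.77 (adjusted p = 0.238), and with mouse as a block besides it was 0.77 (adjusted p = 0.178), so the call was lost in both. For Erg the rise in lymph node minus that in spleen was -0.90 (95% interval -1.60 to -0.21), not called (adjusted p = 0.256), but with mouse as a block and batch as a term it was -1.23 (adjusted p = 0.00683). For Myb, Sox4, Flt3 and Cd93 the intervals of this difference were -0.17 to 0.98, -0.91 to 0.10, -0.69 to 0.27 and -0.47 to 0.73.

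Cd24a was lower in lymph node than in spleen in mice without lymphoma, and Erg was higher there in asymptomatic mice. Lymph node minus spleen passed for 2 genes in FVB/N mice (4.27% of all genes), 3 in asymptomatic mice (5.62%) and 0 in lymphoma mice (0.0552%; 2 at an unadjusted p under 0.05 by limma, Lef1 and Lmo2, and 0 with batch as a term). These shares of all genes differ between the states, and no test set the states against each other. The fitted Cd24a difference was -1.49 in FVB/N mice (adjusted p = 0.00127) and -1.95 in asymptomatic mice (adjusted p = 4.48e-05). The mean paired differences were -0.73 and -0.96, lower in 2 of 3 and 5 of 6 mice. With mouse as a block and batch as a term the FVB/N call was lost (-0.73, adjusted p = 0.208) and the asymptomatic call was kept (-0.96, adjusted p = 0.00608), and the FVB/N call was also lost without FVB/N mouse 1 (-0.83, adjusted p = 0.367). Erg was higher in lymph node in asymptomatic mice by 1.21 (adjusted p = 0.0108), in 6 of 6 mice, and the call was lost without FVB/N mouse 1 (1.22), FVB/N mouse 2 (0.97) or asymptomatic mouse 4 (0.79). With mouse as a block Erg was higher by 1.55 in asymptomatic mice (adjusted p = 1.87e-06) and by 0.99 in FVB/N mice (adjusted p = 0.0186), where the fit with surrogate variables gave 0.58 (adjusted p = 0.392). Lef1 was called higher in lymph node, by 0.79 and 0.69, but with mouse as a block it was -0.15 (adjusted p = 0.821) and -0.23 (adjusted p = 0.509). The FVB/N call of Lef1 was also lost without FVB/N mouse 1 (0.63) or 3 (0.67) or asymptomatic mouse 1 (0.64), and the asymptomatic call without FVB/N mouse 2 (0.65). In asymptomatic mice 3 further genes passed with a mouse left out: Il7r without asymptomatic mouse 6 (0.79) or lymphoma mouse 2 (0.84) or 4 (0.69), Kit without lymphoma mouse 3 (-1.31) and Myb without asymptomatic mouse 4 (-0.68). In FVB/N mice Il7r passed without lymphoma mouse 4 (0.75). Cd93 was not called in asymptomatic mice at -0.04 (adjusted p = 0.966), but with mouse as a block it was higher in lymph node by 0.76 (adjusted p = 0.0175), and Myb was then lower there, at -0.43 (adjusted p = 0.0408). Over the 6 lymphoma mice the mean paired difference lay between -0.60 for Lmo2 and 0.32 for Erg. That of Lef1 was 0.21 (SD 0.10, range 0.08 to 0.30), with the node higher in 6 of 6 mice, while for Lmo2 it was higher in 3. With mouse as a block and batch as a term 0 of the 10 genes passed in lymphoma mice. No paired test of each gene was run.

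The 6 lymphoma mice differed from one another, and for Lef1 the difference was shared by both tissues. Spleen and node levels of Lef1 had Pearson's r = 0.996 over 6 mice (exact permutation p = 0.00139, adjusted over the 10 genes 0.0139) and Spearman's rho = 1.000 (exact permutation p = 0.00278, adjusted 0.0278). Mice 2 and 6 were highest in both tissues, at 10.53 and 10.56 in spleen and 10.62 and 10.64 in lymph node, and mouse 5 was lowest at 9.71 and 10.02. Without the 2 mice farthest from the median, r was 0.994. For the other 9 genes r ran from -0.058 (Flt3) to 0.918 (Cd24a), and none passed after adjustment (smallest adjusted exact permutation p = 0.0833, for Cd93 and Cd24a). Without the 2 farthest mice r was 0.146 for Sox4 and -0.121 for Erg. In Lmo2 the tissues of mouse 1 stood apart, with 10.88 in spleen and 8.63 in lymph node, and r without the 2 farthest mice was 0.926. With levels centred on the batch mean, r was 1.00 for Lef1 and 0.89 for Cd93 (adjusted exact permutation p = 0.0139 and 0.0208), while that of Kit went from 0.51 to -0.12.

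**Figure D4:**
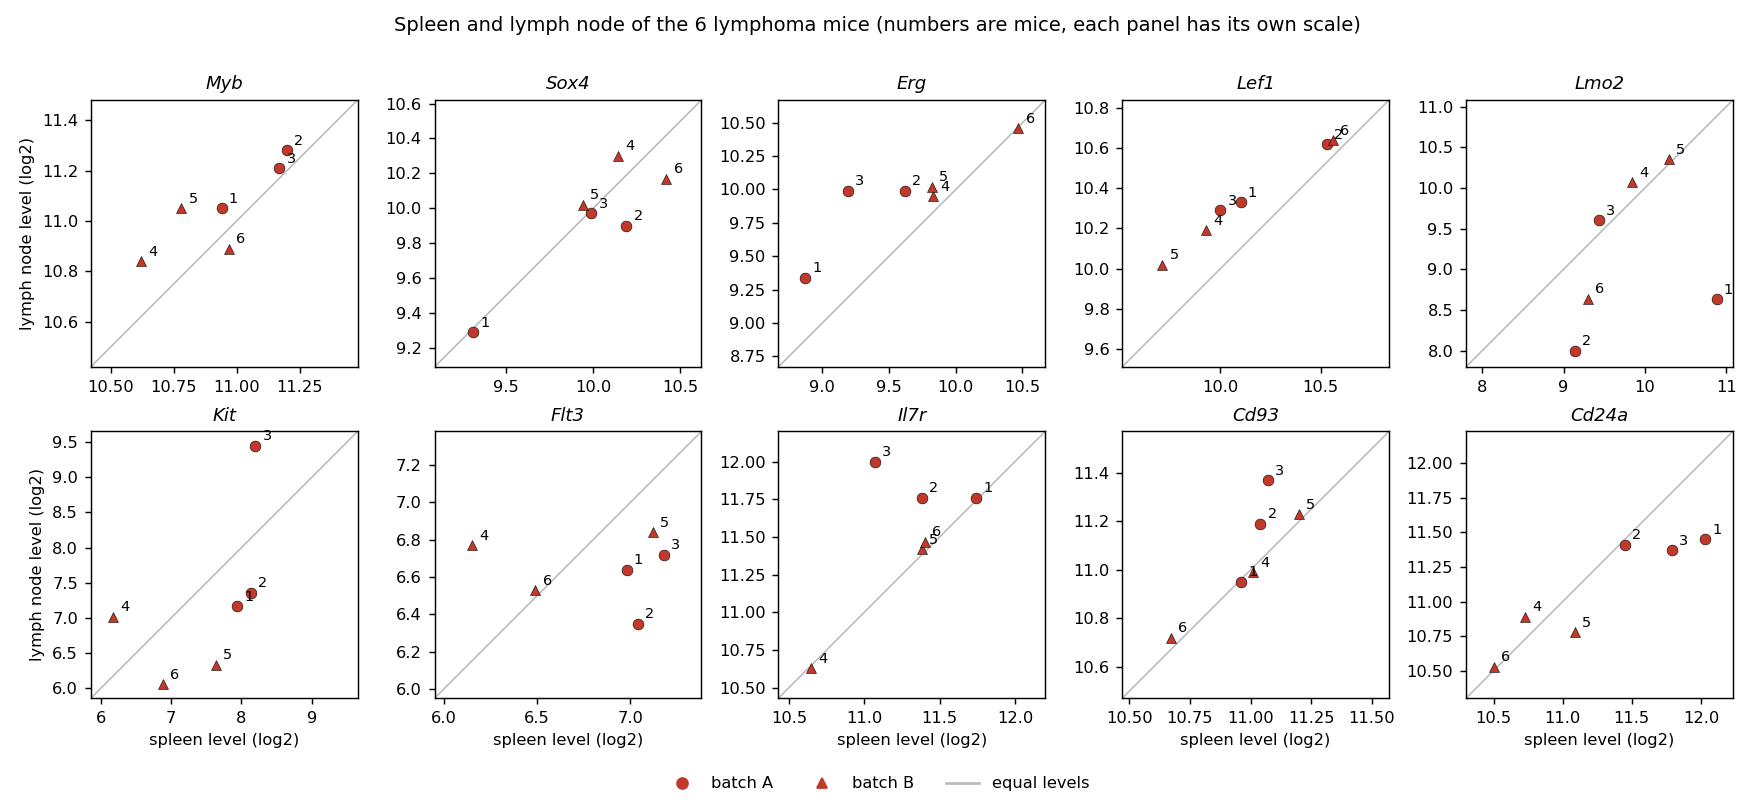
Lymph node level (log2, vertical) against spleen level (log2, horizontal) of each gene in the 6 lymphoma mice, numbered, with circles for batch A and triangles for batch B and a line of equal levels. For Lef1 the 6 mice keep the same order in both tissues, while for Lmo2 mouse 1 and for Kit mouse 3 lie far from the others.

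Within a state, some of the 10 genes stood apart between the labelled batches, as did many of all genes. In asymptomatic spleens batch A and batch B did not overlap for 6 genes, against 47.3% of all genes. Means in A and B were 8.43 and 7.66 for Myb, 7.91 and 7.15 for Cd93, 10.83 and 10.12 for Il7r and 11.20 and 10.34 for Cd24a, all higher in A, with smaller gaps for Lmo2 (10.73 and 10.53) and, in the opposite direction, Sox4 (7.18 and 7.43). In asymptomatic nodes 2 genes did not overlap (25.7% of all genes), in lymphoma spleens 3 (27.3%) and in lymphoma nodes 4 (25.6%). With 10 genes, none of the 4 counts is read as a result about them. Kit and Cd24a were apart in both lymphoma tissues, by 1.20 and 0.99 in spleen and by 1.52 and 0.68 in lymph node, higher in A. Within each batch the lymphoma rise of Myb, Sox4, Erg and Cd93 and the fall of Flt3 stayed clear of overlap: in spleen Myb differed by 2.67 in A and 3.13 in B, and Erg by 2.99 and 3.85.

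Over the 30 arrays, Myb, Sox4, Erg and Cd93 lay near one another. The measure is the root mean square distance between levels centred on each gene's mean, in log2 units, and the arrays share the same animals and batches. Group means were not removed, so genes with lymphoma changes of similar size lie near one another by that alone. The nearest pairs were Erg and Cd93 (0.54), Myb and Sox4 (0.55) and Myb and Cd93 (0.57). At 0.58 each came Sox4 and Erg, Sox4 and Cd93, and Lef1 and Il7r, while Myb and Erg were at 0.86. The spread of Lef1 about its own mean was only 0.42, so its distance of 0.58 from Il7r is not close. Cd24a was nearest to Il7r (0.82) and Kit (0.86). Among all other genes, Myb lay nearest to Vpreb3 (0.44), Cecr2 (0.48) and Rag2 (0.49), Sox4 to Shcbp1 (0.34), Ttk and Kif2c (both 0.37), Erg to Lxn (0.48), Smtn (0.51) and Gas2l3 (0.52), and Cd93 to Gas2l3 (0.41), Adgrg1 (0.42) and Bub1b (0.48). Flt3 lay nearest to Ids (0.24), Rgs3 (0.26) and Axin2 (0.27), and Il7r to Ccnd3 (0.25), Plcg1 (0.33) and Znrf1 (0.34). Cd24a lay nearest to Blnk (0.44), Pou2af1 (0.45) and Cep78 (0.46), Lef1 to Kcnab2 (0.26), Fam78a and Atp8b2 (both 0.27), and Lmo2 to Arhgap6 (0.34), Hdac9 (0.36) and Gpr155 (0.37). No gene lay close to Kit, whose nearest, St3gal2, was at 0.54 where the spread of Kit about its own mean was 0.74.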

How the data were processed

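In the deposited table the values are log2 levels, one per probe set and array. Per the series' design text, the authors used frozen robust multiarray analysis for normalization, and then limma-type linear models with surrogate variables and Benjamini-Hochberg adjustment, a scheme followed here. Software versions are not given in the sources used here. Scanner files were not used here. Of 35556 probe sets with values, 21789 carried 1 symbol and were named, and the one with the highest mean stood for a gene, which left 19938 genes.

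All 30 arrays entered 1 limma fit (version 3.58.1, R 4.3.3) with 6 groups and 6 surrogate variables, whose number was set by 20 residual permutations (p limit 0.1) and which were computed with 5 re-weighting iterations. Calls are at an adjusted p under 0.05 over all genes. The fit was tested on simulated data. Groups came from titles and descriptions, and each mouse is 1 replicate per tissue. Precision is limited by 3 or 6 arrays in a group. The surrogate variables take up spread that the groups do not explain, so a fitted difference can depart from the measured means.

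All 10 genes and the 3 nearest genes to each are named. Of the other lists, up to 4 genes with the smallest adjusted p are named, and a few chosen after their values were seen. Genes that complete a count of 5 or fewer are named for some counts only. Some called genes, such as the endothelium genes that rose, are therefore not named. The 10 genes and the lists were chosen with earlier results of these data known, so list counts are descriptions. Spleen and node of a mouse share an animal and a batch: over genes, their deviations from the group means correlated at -0.014 to 0.675 (median 0.333, 15 mice). The FVB/N mice, all in batch A, lay at -0.014 to 0.052, and the Tg26 mice, in both batches, at 0.137 to 0.675. The deviations were not centred on batch, so animal and batch cannot be told apart here. Equal numbers across asymptomatic and lymphoma mice name different animals of the same batch, but their deviations correlated too, at 0.228 to 0.497 in spleen, all 6 pairs over 0.1, and at 0.084 to 0.237 in lymph node, and mouse number was also tried as a block within the tissue. Other settings were batch or neighbouring tissue terms, single batches or tissues, quantile normalization, probe set means, a filter on low genes, limma's trend and robust options, a mouse block and leaving out each mouse. A setting added after the data were seen left out the 10 arrays on which a salivary gland, exocrine pancreas or adipose and muscle list averaged over 1 unit above its median across the arrays, with batch as a term.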

Additional observations from a re-analysis of the deposited data

Results flagged for a closer look

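In lymph nodes of asymptomatic mice, Lmo2 in mouse 6 stood apart from the other 5, at 10.82 with the nearest at 10.21. That array also had erythroid genes at 9.45, spleen markers at 9.55 and pancreas genes at 13.31, and their part in the level was not tested. Cd93 in the node of asymptomatic mouse 1 stood apart at 7.45, with the nearest at 8.26, and the endothelium list there averaged 7.30 against 8.02 to 8.54 on the other asymptomatic nodes. These were 2 of 40 gene and group combinations examined for a lone array, and chance alone marks about 1 in 20. The lymphoma rise of Cd24a differed between the tissues by 1.76 in limma's test of the difference itself (adjusted p = 0.00246), and that call was lost with batch as a term.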

How the results depend on the processing

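The rises of Myb, Sox4, Erg and Cd93 over asymptomatic mice passed under all 28 alternatives in both tissues. Flt3 passed under 28 in spleen and 27 in lymph node. The 8 calls in spleen became 5 in batch A, in batch B and with neither surrogate variables nor batch, and 6 to 8 when 1 mouse was left out. Of all 19938 genes, 3156 were called in the main fit, 2769 in batch A, 1678 in batch B and 3148 with neither. Calls on the tissue difference of the lymphoma change went from 1 to 0 in batch A, with neighbouring tissue lists as terms and without the neighbouring-tissue arrays, and to 2 in batch B. Over all genes this comparison had 114 calls in the main fit, 29 in batch A, 0 with the list terms and 425 in batch B. Tissue calls in FVB/N mice went from 2 to 1 without those arrays, with the list terms, with batch as a term, without genes below the median and with the mouse replicate block, to 0 in batch A and with no covariates, and lay between 0 and 3 with 1 mouse left out. In asymptomatic mice they went from 3 to 1 with the list terms and without those arrays, and to 1 to 4 with 1 mouse left out. With the list terms, calls over all genes went from 851 to 282 in FVB/N mice and from 1120 to 142 in asymptomatic mice. Calls among the 10 tissue correlations went from 1 to 0 after quantile normalization, to 2 after batch centring, and to 0 to 2 with 1 mouse left out, which leaves 5 mice. With 5 mice, 1 gene alone cannot pass the adjustment over 10 genes, even at the smallest possible exact permutation p. A count of 0 there is thus not read as a loss. Over the 9 alternatives the r of Lef1 ran from 0.98 to 1.00.

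Values that were called under either setting turned sign for 4 genes, and the cause was not tested. Differences called under neither crossed 0 for other genes too, such as Il7r between the tissues of asymptomatic mice, from -0.21 to 0.87. Lef1 over asymptomatic mice became 0.14 in spleen without lymphoma mouse 5, in a range from -0.55 with 1 mouse left out. In lymph node it became 0.19 with batch as a term, with either replicate block, in the arrays of the tissue alone and with no covariates, 0.09 in batch A and 0.29 in batch B. Over FVB/N mice in lymph node it became 0.17 with batch or the mouse replicate block, 0.21 in the tissue alone, 0.16 in batch A, 0.03 without genes below the median and 0.10 with no covariates. Its node minus spleen difference became -0.15 in FVB/N mice (batch A, batch term, replicate block, no covariates), and in asymptomatic mice -0.07 and -0.39 in batches A and B and -0.23 in the other 3. Lmo2 over asymptomatic mice in lymph node became -1.0 with batch, the mouse replicate block, the tissue alone or no covariates, -1.29 in batch A, -0.66 without genes below the median and from -0.89 to 0.20 with 1 mouse left out, and over FVB/N mice in spleen from -1.08 to 0.27. Kit in lymph node, 0.78 and not called, became -1.50 in batch B, where it was called, and -0.45 with batch as a term, where it was not. For Cd93 the tissue difference of the lymphoma change became -1.29 in batch B, and node minus spleen in asymptomatic mice 1.31 in batch B and 0.76 with batch, the mouse replicate block or no covariates. With the mouse replicate block, calls over asymptomatic mice were 6 in spleen and 8 in lymph node. Of all 19938 genes, 4019 and 6520 were called there. With mouse number as a replicate block, calls were 6 higher and 2 lower in spleen, 6 higher and 1 lower in lymph node. That setting called 4016 and 4861 of all genes. Lef1 was lost in both tissues, Lmo2 was gained in spleen and Il7r in lymph node, and no other call over asymptomatic mice changed. Without the neighbouring-tissue arrays 1 asymptomatic node is left, so its node values compare lymphoma with that array, and the lone array is assumed to vary like the other groups.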
